A study of Mus musculus with 4 samples.

Results

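The genes described are 8 genes by which the suckling brain takes up and burns ketone bodies and other monocarboxylates: the carriers Slc16a1, Slc16a7 and Slc16a3, the carrier partner Bsg, and the enzymes Bdh1, Oxct1, Acat1 and Aacs. They were chosen by name, with earlier results of these data known. Taking every probe set annotated with 1 of these symbols and no other gave 17 of the 45101 probe sets of the array. These stand for 8 of 18194 named genes. RNA of cerebrums was read on Affymetrix Mouse 430 2.0 arrays, 1 array for each of 4 pools made from 5 to 6 cerebrum samples. The 2aECKO pool carried the floxed Mfsd2a allele with Tie2-cre and was taken at postnatal day 9, as was its control 2afl/fl, which carried the floxed allele without cre. The 2aiECKO pool carried the floxed allele with Cdh5ERT2-cre and was taken at postnatal day 8 after 4-hydroxytamoxifen (4-OHT) injections begun at birth, as was its control, 2afl/fl with 4-OHT. Tie2-cre and Cdh5ERT2-cre act in endothelium, and Tie2-cre is also known to act in blood cell lineages. One label of the 2aiECKO pool reads 2aECKO, against its title and its genotype, and these were followed.

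Ketone bodies are made in the liver from the fat of milk and are a main fuel of the brain before weaning. They cross the endothelium of the blood-brain barrier and enter cells through monocarboxylate transporters, which also carry lactate and pyruvate. In mitochondria hydroxybutyrate is oxidized to acetoacetate, which is activated with succinyl-CoA and split to acetyl-CoA for the citric acid cycle. In the cytosol acetoacetate can instead be activated directly and used to build fatty acids and cholesterol. The comparison asks how RNA of these genes stood in cerebrums whose endothelium lacks the lysolipid transporter Mfsd2a.

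Each pool is 1 sample, so no difference has a replicate check, no test across samples could be made and no p-value is given. The median signal over all probe sets was 74.1 and 75.5 in 2afl/fl and 2aECKO but 48.7 and 49.2 in the 4-OHT control and 2aiECKO, and folds were therefore taken within a pair. The brightest probe set of a gene, by the mean of its log2 signals on all arrays, stood for the gene. A gene is called lower here if its signal reached 50 in the control and the log2 fold lay 0.32 or more below 0, a fold of 0.8 or less, and higher if its signal reached 50 in the knockout and the log2 fold lay 0.32 or more above 0. Signals of Mfsd2a at its only probe set were 423 and 410 in 2afl/fl and 2aECKO, and 369 and 299 in the 4-OHT control and 2aiECKO. Where that probe set lies relative to the deleted exons is not stated, and it checks neither knockout label.

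Slc16a1 stood apart from the other genes of the group: its signal was lower in both endothelial knockouts, while the other 6 with sufficient signal stayed within that limit of their control. Of the 8 genes, 7 reached a mean signal of 50, and Slc16a3 did not. In 2aECKO 1 of the 7 was lower and 0 were higher. Over all 12426 genes whose mean signal reached 50, 1.44% were lower and 2.04% higher in that comparison. In 2aiECKO 1 of the 7 was again lower and 0 were higher, against 0.523% lower and 1.77% higher over all genes. The gene called in both comparisons was Slc16a1. The median log2 fold of the 7 genes was -0.05 in 2aECKO and -0.07 in 2aiECKO, beside -0.0066 and -0.0042 over all 12426 genes. Without Slc16a1 the other 6 had log2 folds from -0.18 to 0.15 in 2aECKO and from -0.10 to 0.03 in 2aiECKO. The robust SD of the log2 fold over all genes, a measure of how far single genes scatter, was 0.12 in 2aECKO and 0.10 in 2aiECKO.

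**Figure D1:**
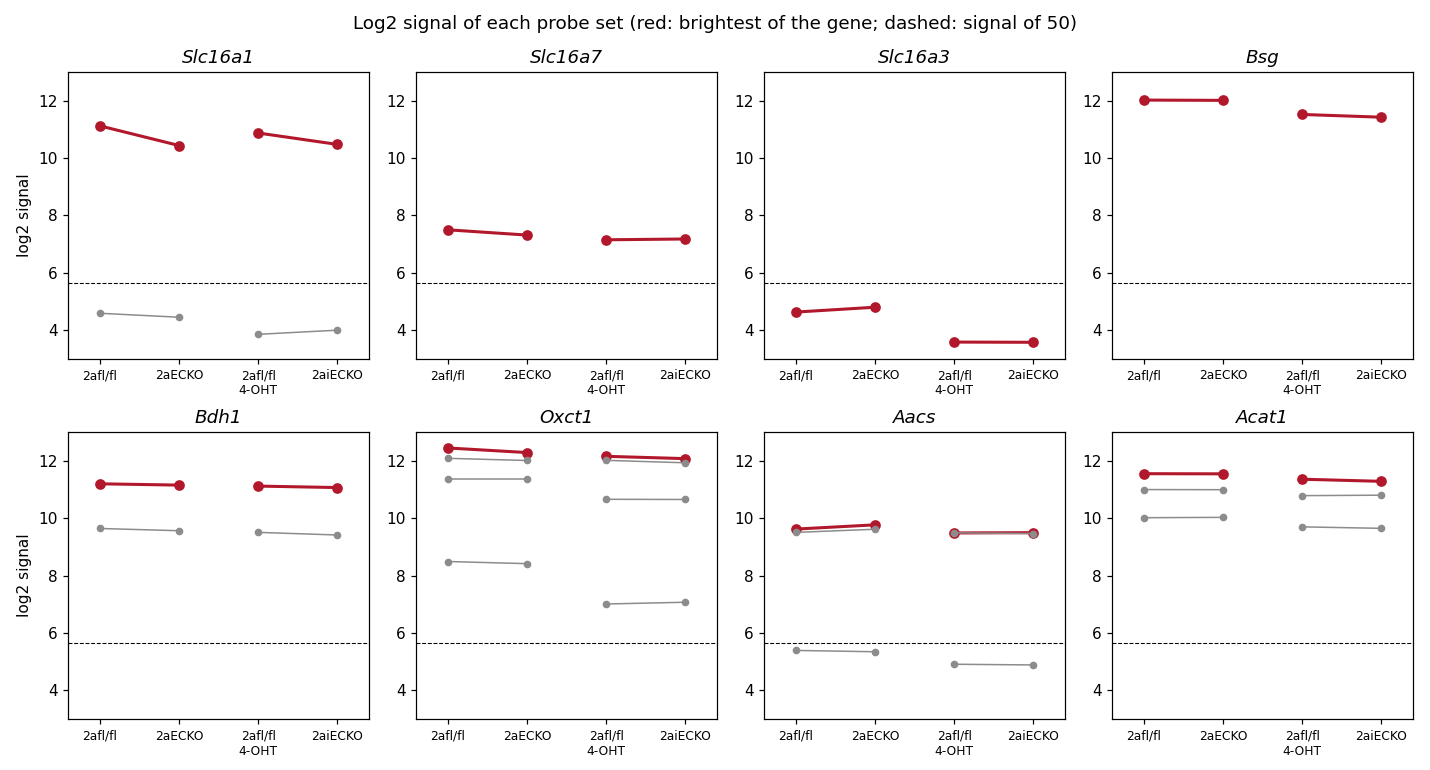
Log2 signal (vertical axis) of every probe set of the 8 genes on the 4 arrays (horizontal axis), with each knockout joined to its own control, the brightest probe set of a gene in red, its others in grey, and a signal of 50 dashed. The red line of Slc16a1 descends in both pairs, from 2222 to 1382 and from 1870 to 1420, while those of Bsg, Bdh1 and Acat1 are nearly level.

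Slc16a1 encodes MCT1, the monocarboxylate transporter of the blood-brain barrier endothelium, which is also found in glia. Its bright probe set, 1415802_at, read 2222 in 2afl/fl and 1382 in 2aECKO. It read 1870 in the 4-OHT control and 1420 in 2aiECKO. Both controls thus lay above both knockouts. The log2 fold was -0.68 in 2aECKO, a signal 37.8% below its control, and -0.40 in 2aiECKO, a signal 24.1% below its control. When the 4 arrays were brought to 1 common distribution, the signals were 1994 in 2afl/fl, 1255 in 2aECKO, 2071 in the 4-OHT control and 1581 in 2aiECKO. On that scale the controls differed from each other by 0.06 in log2 and the log2 folds against their own control were -0.67 and -0.39.

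Among the 12426 genes Slc16a1 had the 3rd lowest log2 fold in 2aECKO and the 21st lowest in 2aiECKO. The genes were chosen with earlier results known, so these ranks describe Slc16a1 and test nothing. Of 13 genes lower in both comparisons it ranked 3rd by the smaller of its folds, after Kcnn1, a potassium channel gene, and Trpa1, a cation channel gene named here for its rank. The log2 fold of Slc16a1 was larger in size in 2aECKO than in 2aiECKO by 0.29. With 1 array per group this difference could not be tested, and the models also differ in age, cre line and 4-OHT.

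**Figure D2:**
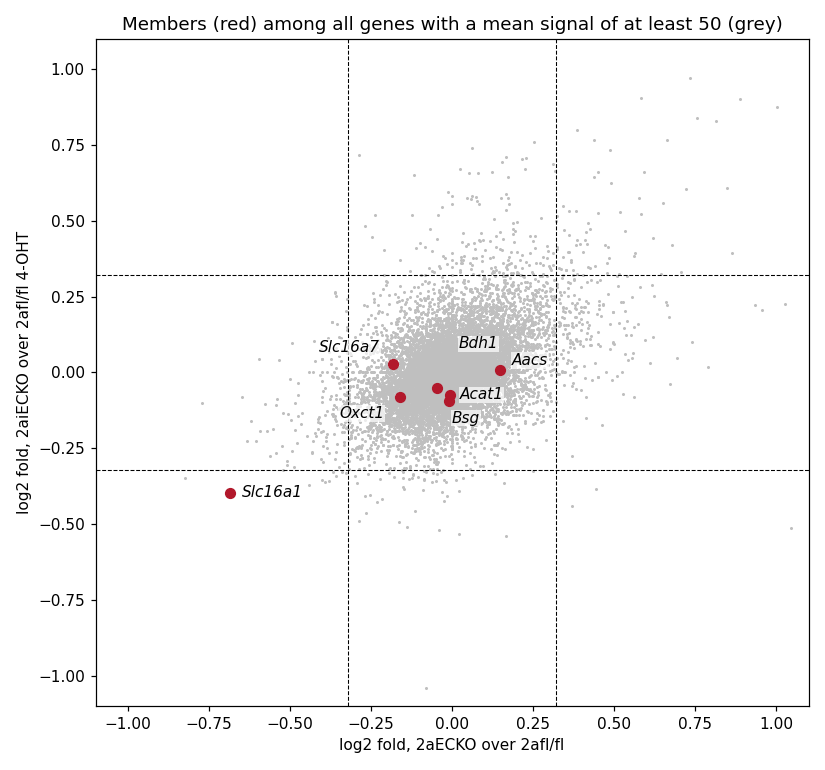
Log2 folds of the 7 genes with sufficient signal (red) and of all 12426 genes (grey, 2 of them beyond the axes), with 2aECKO against its control on the horizontal axis, 2aiECKO against its control on the vertical axis, and 0.32 to either side of 0 dashed; a point is 1 gene on single pooled arrays. Slc16a1, at -0.68 and -0.40, lies in the lower left corner and the other 6 lie inside the dashed square.

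The value of Slc16a1 depends on the probe set. Its other probe set, 1446274_at, was dim, with signals of 24.0 in 2afl/fl, 21.8 in 2aECKO, 14.4 in the 4-OHT control and 16.0 in 2aiECKO. These signals lay between the 22.0 and 26.9 percentile of all probe sets on their arrays, while those of the bright probe set lay between the 93.8 and 96.7 percentile. Its log2 fold was -0.14 in the 2aECKO pool and 0.14 in the 2aiECKO pool, opposite in sign and both short of the limit. Averaged over both probe sets, the log2 fold of Slc16a1 was -0.41 in 2aECKO, still lower by the rule, and -0.13 in 2aiECKO, no longer so.

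Probe sets as dim as this one scattered more. Of 13710 probe sets with a mean signal within 2-fold of that of 1446274_at, log2 folds had a robust SD of 0.19 in 2aECKO and 0.18 in 2aiECKO, and 46.0% and 41.2% of them had a log2 fold at least as large in size as its own. Of 3581 probe sets as bright as 1415802_at, by the same window, the robust SD was 0.10 and 0.08, and 0.168% and 0.698% had a log2 fold at least as large in size as its own. Few probe sets as bright as the bright one thus had so large a fold, while many as dim as the dim one had a fold of its size. Slc16a1 was chosen with earlier results known, so these shares describe its probe sets and test nothing.

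Over all genes, such a gap between a bright and a dim probe set of 1 gene was seldom as wide. The 2 probe sets of Slc16a1 differed in log2 fold by 0.55 in 2aECKO and 0.54 in 2aiECKO. Among 4147 genes with a bright probe set and at least 1 with a mean signal under 50, the largest such gap had a median of 0.17 and 0.16, and it was at least as wide as in Slc16a1 in 2.92% and 1.59% of them. The 4147 genes were taken whatever the fold of their bright probe set, and dim probe sets of all measured genes had a median log2 fold of 0. A large bright fold thus gives a wide gap by itself, and the 2.92% and 1.59% do not measure disagreement beyond it. Among genes lower in 2aECKO at their brightest probe set, 53 of 179 also had dim probe sets, 74 in all, of which 12 were lower by 0.32 or more, with a median log2 fold of -0.07. In 2aiECKO 19 of 65 such genes had 23 dim probe sets, of which 1 was lower by that size, with a median of 0. These shares, 16.2% and 4.35%, stand beside 4.63% and 3.94% of the 5812 dim probe sets of all measured genes. Most dim probe sets of the lower genes thus did not reach the limit, though in 2aECKO a larger share of them did than over all genes. These genes were picked by the fold of their bright probe set. Which part of the transcript either Slc16a1 probe set reads is not stated.

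**Figure D3:**
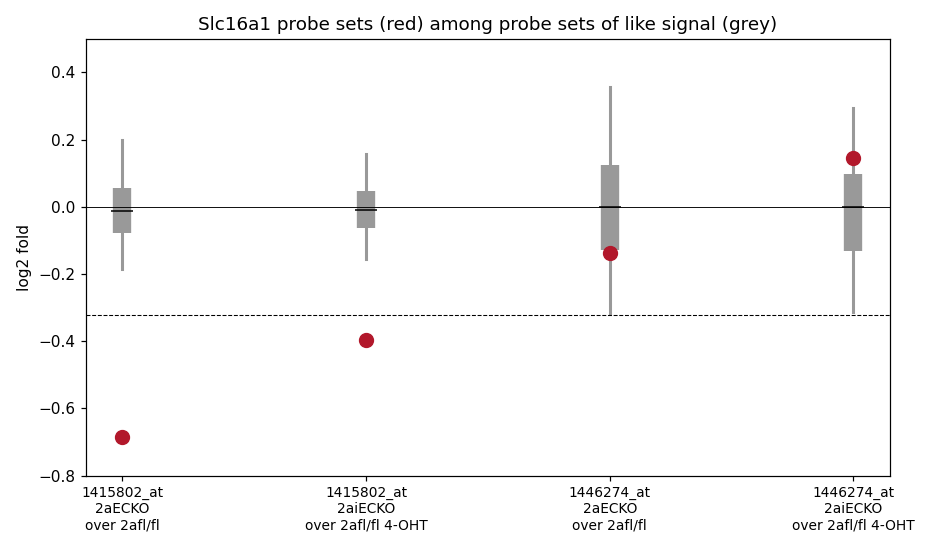
Log2 fold (vertical axis) of the 2 Slc16a1 probe sets in each comparison (red points) beside probe sets with a mean signal within 2-fold of theirs (thick grey line, interquartile range; thin grey line, 5th to 95th percentile; black bar, median), with a fold of 0.8 dashed. The bright probe set, at -0.68 and -0.40, lies below the grey lines in both comparisons, while the dim probe set, at -0.14 and 0.14, lies within it.

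Endothelial markers gave no call in either comparison, and none had a fold as low as that of Slc16a1. Of 17 measured, 0 were higher and 0 lower, which is near the background for so few genes. In 2aECKO 6 lay below 0 and in 2aiECKO 12 did, beside 51.5% and 50.9% of all 12426 genes. Mfsd2a, itself an endothelial gene, had log2 folds of -0.05 and -0.30. Their median log2 fold was 0.05 in 2aECKO, with members from -0.25 for Tie1 to 0.28 for Emcn, and -0.07 in 2aiECKO, from -0.24 for Tek to 0.21 for Slco1a4. Summed over the 17, the signal went from 9327 to 9364 in 2aECKO, a difference of 0.401%, and from 6956 to 6619 in 2aiECKO, a difference of -4.86%. In whole cerebrum, fewer cells of a type and less RNA per cell cannot be told apart. The dimmest of the 17, Tie1, had signals of 82.6, 69.4, 40.8 and 35.3 in 2afl/fl, 2aECKO, the 4-OHT control and 2aiECKO.

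Some markers of other cells passed the limit in the same pools. Over all 12426 genes 1.44% were lower and 2.04% higher in 2aECKO, and 0.523% lower and 1.77% higher in 2aiECKO. Of 11 astrocyte markers 0 were lower in either comparison, while 2 were higher in 2aECKO and 4 in 2aiECKO, with medians of 0.09 and 0.27, and their summed signal went from 22369 to 24763 and from 15338 to 18195. Gfap, the astrocyte filament gene, was the highest of them in both, at 0.89 and 0.90, and S100b in 2aECKO and Slc1a2 in 2aiECKO were the lowest, at -0.04 and 0.06. Of 11 neuron markers 2 were lower in 2aECKO, Slc17a7 at -0.39 and Camk2a at -0.36, and 0 in 2aiECKO, with medians of -0.08 and -0.04 and Gad2 the highest in both, at 0.06 and 0.04. The lowest in 2aiECKO was Slc17a7, at -0.21. The summed neuron signal went from 57886 to 55056 and from 45052 to 43273. Of 9 microglia markers 2 were lower and 0 higher in 2aECKO, where Tmem119 was lowest at -0.46 and C1qa highest at 0.31, while 7 were higher and 0 lower in 2aiECKO, where Tyrobp was highest at 0.76 and Tmem119 lowest at -0.14. Their medians were 0.08 and 0.45, and their summed signal went from 4971 to 5240 and from 4549 to 6549. Of 9 oligodendrocyte lineage markers 1 was lower in 2aECKO, Mobp at -0.34, with Cnp highest at 0.23. In 2aiECKO 1 was higher, Mbp at 0.42, with Cspg4 lowest at -0.15. The medians of this list were 0.0046 and 0.07, and its sums went from 14638 to 15291 and from 9603 to 11016. Of 5 choroid plexus markers Aqp1 was higher in 2aECKO, at 0.42, with Clic6 lowest at 0.16, and 0 passed in 2aiECKO, from 0.05 for Folr1 to 0.28 for Clic6, with medians of 0.20 and 0.13. Of the red cell list only Alas2 was measured, and the log2 fold of this heme synthesis gene was 1.05 in 2aECKO and -0.51 in 2aiECKO, on signals of 57.9, 120, 36.8 and 25.8 in the order used above. The part of these cells in the values of Slc16a1 and of the other genes was not tested.

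The neuronal carrier Slc16a7 stood within the limit of its controls, and the glycolytic carrier Slc16a3 was too dim to read. Slc16a7 encodes MCT2, a high-affinity transporter of neurons, and its single probe set gave signals of 180 in 2afl/fl, 159 in 2aECKO, 142 in the 4-OHT control and 145 in 2aiECKO. Its log2 folds were -0.18 in 2aECKO and 0.028 in 2aiECKO, both within the limit and of opposite sign. Slc16a3 encodes MCT4, which exports lactate from glycolytic cells such as astrocytes. Its single probe set was dim on every array, with signals of 24.7 in 2afl/fl, 27.8 in 2aECKO, 12.0 in the 4-OHT control and 11.9 in 2aiECKO, so that its log2 folds of 0.17 and -0.01 were not read as a level of the gene.

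Bsg encodes basigin, the membrane partner that brings MCT1 and MCT4 to the cell surface. Signals at its single probe set were 4143 in 2afl/fl and 4115 in the knockout 2aECKO, with a log2 fold of -0.01. They were 2928 in the 4-OHT control and 2741 in the knockout 2aiECKO, with a log2 fold of -0.10. The partner gene thus stood level with its control in 2aECKO, where Slc16a1 was furthest from it, and slightly below in 2aiECKO. The ID of the Bsg probe set ends in _a_at, a mark of probes shared by transcripts of 1 gene.

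The mitochondrial enzymes of ketone body oxidation stood within the limit of 0.32 of their controls at each of their 9 probe sets. Bdh1, which oxidizes hydroxybutyrate to acetoacetate, had signals of 2351 in 2afl/fl, 2277 in 2aECKO, 2224 in the 4-OHT control and 2146 in 2aiECKO at its brighter probe set. Its log2 folds were -0.05 in both comparisons, and its other probe set gave -0.08 and -0.09. All 4 values of Bdh1 were thus below 0, by less than the scatter of single genes.

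Oxct1 encodes the succinyl-CoA transferase that activates acetoacetate, the step that commits it to oxidation outside the liver. Its brightest probe set, 1449059_a_at, gave signals of 5585 in 2afl/fl, 4999 in 2aECKO, 4565 in the 4-OHT control and 4317 in 2aiECKO. Its log2 folds were thus -0.16 and -0.08. The nearly as bright 1428140_at gave -0.08 and -0.09, and 1436750_a_at gave 0.00 and -0.01. The least bright, 1455804_x_at, gave -0.07 and 0.06. Over its 4 probe sets Oxct1 was therefore at or below its control in 2aECKO and on either side of it in 2aiECKO, and none of these values reached the limit.

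Acat1 encodes the mitochondrial thiolase that splits acetoacetyl-CoA to acetyl-CoA. Its brightest probe set read 3000 in 2afl/fl, 2990 in 2aECKO, 2625 in the 4-OHT control and 2495 in 2aiECKO. The log2 folds at it were -0.01 and -0.07. Its 3 probe sets spanned -0.01 to 0.01 in 2aECKO and -0.07 to 0.02 in 2aiECKO, so that of the 3 enzymes it lay nearest to its control in 2aECKO.

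Aacs, the cytosolic acetoacetyl-CoA synthetase that turns acetoacetate to lipid synthesis, was the 1 gene of the 7 above its control in 2aECKO. Its brightest probe set gave signals of 787 in 2afl/fl, 872 in 2aECKO, 717 in the 4-OHT control and 722 in 2aiECKO. Its log2 folds were thus 0.15 and 0.01. The second bright probe set gave 0.11 and -0.02, and the third, with signals from 29.6 to 42.0, gave -0.05 and -0.02. Aacs thus stood above its control in 2aECKO, within the limit, at both bright probe sets, and close to it in 2aiECKO at all 3. Other genes supply acetyl and acetoacetyl units to lipid in the cytosol. Of 5 measured, 0 passed the limit in either comparison, and 4 were above 0 in 2aECKO and 2 in 2aiECKO. Over all genes 51.5% and 50.9% lay below 0. The median log2 fold of the 5 was 0.22 and -0.03. Acly, which forms cytosolic acetyl-CoA from citrate, was the highest of them, at 0.31 and 0.10, and the citrate carrier gene Slc25a1 the lowest, at -0.05 and -0.12.

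Other monocarboxylate carriers centred near their controls in both comparisons. Of 10 measured genes of other monocarboxylate carriers and their partners, 0 passed in 2aECKO, with a median of 0.02. In 2aiECKO 1 was higher, Slc16a12, a creatine transporter gene, and 1 was lower, Slc16a13, with a median of 0.02. Slc16a12 read 38.9 in the 4-OHT control and 51.7 in the knockout, a log2 fold of 0.41, and Slc16a13 read 57.7 and 45.4, a log2 fold of -0.35. Both signals thus lay close to the limit of 50. Slc16a4 had the highest log2 fold in 2aECKO, at 0.27, and Mpc1, a subunit of the mitochondrial pyruvate carrier, the lowest, at -0.13. Emb, which encodes embigin, a partner of MCT2, had 0.03 and 0.09.

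Genes that make or sense ketone bodies were dim or level. Of 4 matched genes of ketone body formation, 3 were measured and 0 passed in either comparison. Hmgcll1 was the highest, at 0.14 in 2aECKO and 0.04 in 2aiECKO, and Acaa2, a thiolase gene, the lowest, at -0.03 in each. The receptor genes Hcar1, for lactate, and Hcar2, for hydroxybutyrate, had signals under 50 on all arrays. Those of Hcar2 were 38.9 in 2afl/fl, 25.0 in 2aECKO, 17.4 in the 4-OHT control and 25.8 in 2aiECKO. As for Slc16a3, signals this dim were not read as a level of the gene.

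Among genes of lactate and pyruvate conversion, Pdk4 encodes a kinase that restrains pyruvate dehydrogenase when fat and ketone bodies are burned. Pdk4 had signals of 129 in 2afl/fl, 165 in 2aECKO, 74.0 in the 4-OHT control and 97.5 in 2aiECKO, with log2 folds of 0.36 and 0.40. It was higher in both knockouts and was the 1 of 14 genes that passed the limit in either. The median of the 14 was -0.10 in 2aECKO, where 10 lay below 0, beside 51.5% of all genes. The lowest there was Pdha1, a pyruvate dehydrogenase subunit gene, at -0.15. In 2aiECKO the median was -0.01 and the lowest was Ldha, a lactate dehydrogenase gene, at -0.14.

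Of 14 genes of glucose entry and glycolysis 0 passed in either comparison, with medians of -0.07 in 2aECKO and -0.06 in 2aiECKO. In each comparison 11 lay below 0, beside 51.5% and 50.9% of all genes. Pfkl, a phosphofructokinase gene, was the lowest in both, at -0.21 and -0.17, and Aldoc, an aldolase gene of astrocytes, the highest, at 0.25 and 0.26. Slc2a1, the glucose transporter gene of the same endothelium as Slc16a1, had signals of 678 in 2afl/fl, 751 in 2aECKO, 453 in the 4-OHT control and 510 in 2aiECKO. Its log2 folds of 0.15 and 0.17 were above 0 in both knockouts, where those of the bright Slc16a1 probe set were below. Both are whole-cerebrum values, and the part of endothelium in either was not tested. Of 13 genes of the citric acid cycle 0 passed in 2aECKO, with a median of -0.03 and Mdh2 the lowest at -0.12. In 2aiECKO 1 was higher, Suclg2, a succinyl-CoA ligase subunit gene, at 0.35, and the lowest was Dlst, at -0.07, beside a median of -0.0033. Suclg2 was also the highest of the list in 2aECKO, at 0.20.

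**Figure D4:**
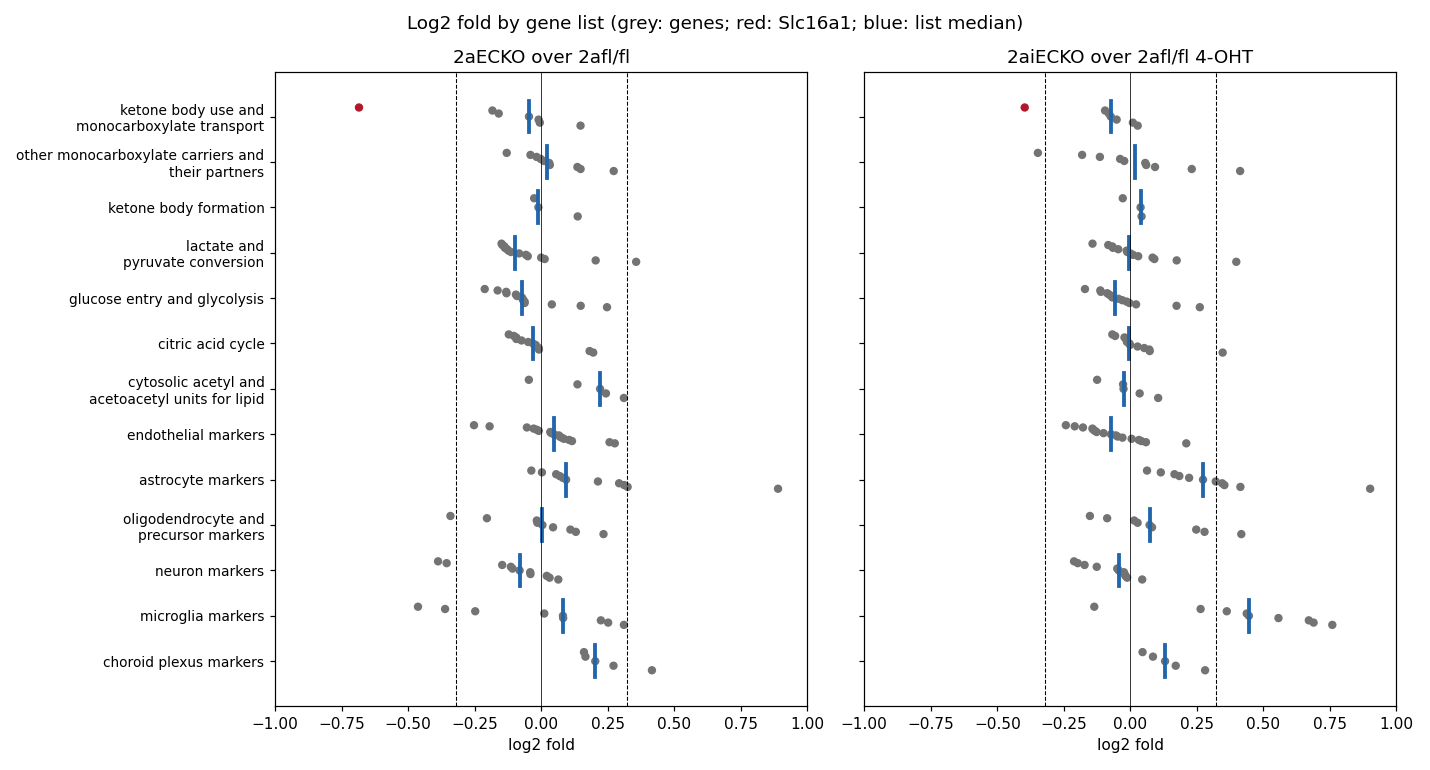
Log2 fold (horizontal axis) of each measured gene (grey points, Slc16a1 in red) in the lists of fuel genes and cell markers, with list medians in blue and 0.32 to either side of 0 dashed, in 2aECKO (left) and 2aiECKO (right); height within a list only orders its genes. Slc16a1 lies to the left of every other gene shown in both panels, which leave out Alas2. The fuel lists have medians from -0.10 to 0.04, except cytosolic acetyl units in 2aECKO at 0.22. Medians of the astrocyte, oligodendrocyte, choroid plexus and microglia lists lie above 0 in both panels, that of the oligodendrocyte list at only 0.0046 in 2aECKO.

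The genes whose folds were most like those of Slc16a1 were sought among 11954 named genes by the distance between their pairs of log2 folds, at 1 probe set a gene. The nearest were Krt12, a keratin gene, at log2 folds of -0.82 and -0.35, Kcnn1 at -0.53 and -0.41, and Rbp4, a retinol carrier gene, at -0.56 and -0.28. Next came Wdfy1 at -0.63 and -0.23 and Nnmt, a nicotinamide methyltransferase gene, at -0.52 and -0.32. Their distances were 0.15 to 0.18 in log2, more than the robust SD of single genes in either comparison. Of these 5, only Kcnn1 and Krt12 were lower in both comparisons by the unrounded limit of 0.3219, which Nnmt missed in 2aiECKO at -0.3209, and 0 are on the fuel gene lists.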

How the data were processed

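Equal amounts of RNA from 5 to 6 cerebrum samples, taken after perfusion, were pooled per genotype and read on 1 array each. The authors deposited intensity values on a linear scale, made by robust multichip averaging (RMA) with background adjustment and quantile normalization. Their methods name the affy package in R and the submitters' processing notes name Partek 6.6; no version of affy is stated. Deposited intensities were set on the log2 scale. Of 45101 probe sets 34958 carry 1 symbol in the platform annotation, 932 carry several and 9211 are unnamed here; symbols were updated through gene IDs of RefSeq GRCm38.p6, which 34754 probe sets matched. Unmatched genes are not analysed here.

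The members and all lists were chosen with earlier results of these data known. Named genes are the members, Mfsd2a, the 5 genes nearest to Slc16a1, and the highest and lowest gene of each list in each comparison; Trpa1, Slc2a1, Emb, Hcar1, Hcar2, S100b and other list members named beside these were added for the description. With 1 array per group no test was made, and precision is limited by that number. The code of the counting rule was checked on simulated data with planted changes well past the limit. That check does not measure false calls on these arrays. Python 3.11.15, numpy 2.4.6, pandas 2.3.3, statsmodels 0.14.6 and matplotlib 3.10.9 were used.

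As alternatives, values were recomputed with the mean over all probe sets, with plain probe sets only, and with the dimmest sufficient probe set. Plain probe sets are those whose ID does not end in _a_at, _s_at or _x_at. Further alternatives were removal of a loess trend (fraction 0.3), median centring, quantile normalization over 4 arrays, and exchanged or averaged controls. A minimum signal of 100 or none and a fold of 1.5 were also used.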

Additional observations from a re-analysis of the deposited data

Results flagged for a closer look

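Slc16a7 had log2 folds of opposite sign, -0.18 in 2aECKO and 0.028 in 2aiECKO, each from 1 pooled array against its own control. The difference between the models was not tested. The second value is smaller than the scatter of single genes, a robust SD of 0.10.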

How the results depend on the processing

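Slc16a1, averaged over both probe sets, stood at -0.41 (log2) in 2aECKO and at -0.13 in 2aiECKO, and 0 of the 7 genes were then lower in 2aiECKO; the dim probe set makes this change by construction. Plain probe sets and the dimmest sufficient probe set both select the same bright probe set of Slc16a1, so they could not move its value. Under loess, centring, quantile normalization and the other controls, it moved by less than the robust SD of single genes. In 2aiECKO 0 were lower at a fold of 1.5, and 2 with controls exchanged after quantile normalization, Slc16a1 and Bsg, the latter at -0.33, when 1139 of 12415 genes were called lower. Exchanging controls brings the difference between the controls into the fold. Over all genes the number lower in 2aiECKO, 65 as given, ran from 2 at a fold of 1.5 to that 1139, and in 2aECKO, 179 as given, from 9 to 2009; the numbers higher ran from 31 to 997 in 2aECKO and from 34 to 1890 in 2aiECKO, 254 and 220 as given. Of 110 values of the other members, 96 moved by less than the robust SD, 14 moved by more, and 2 reached the limit of 0.32, Bsg as above and the dim Slc16a3 at 0.48 in 2aECKO with controls exchanged. Slc16a7, Slc16a3 and Bsg have 1 probe set each, so choices among probe sets could not move their values, which count among the 96. The brightest probe sets of Bdh1 and Acat1 are plain ones, so the choice of plain probe sets could not move their values either. Bsg has no plain probe set, so that choice gave no value for it. No paired analysis was possible because each group holds 1 sample. Signal limits what Slc16a3 and the dim probe sets of Slc16a1 and Aacs can show.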
